A study of Mus musculus with 34 samples.

Results

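Genes of DNA replication and mitosis were followed in the hearts of mice that had received carbon black particles into the airways. The set held 37 genes, chosen by name with earlier results of these data known. They encode replication helicase subunits, the replication clamp, enzymes of nucleotide supply, and mitotic cyclins and kinases. Also in the set are checkpoint and centromere proteins, spindle motors and cell cycle transcription factors. Probes were matched to the genes through the RefSeq accession that the array files give. Of the 37 genes, 35 had a matched probe (46 probes in all), and 31 were bright enough to be tested among 19798 genes or accessions. Cenpf and Mki67 had no matched probe and were not analysed here. Bub1, Ttk, Aurkb and Kif11 stayed below the limit on brightness.

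The mice were female C57BL/6 animals from Taconic, acquired at 5 to 6 weeks of age. Exposed mice received 162 µg of Printex 90, a commercial carbon black, sonicated in saline that held cell-free lavage fluid of mice of that strain. The volume was 40 µl, followed by 150 µl of air. Mice of the control groups are labelled vehicle control (0 µg) and are called vehicle mice here. Hearts were taken on day 1 (6 vehicle and 6 carbon black arrays), day 3 (6 and 5) and day 28 (6 and 5), which gave 34 arrays, each of 1 sample. Each array carried heart RNA labelled with Cy5 and, in the Cy3 channel, Universal Mouse Reference RNA, a purchased total RNA that was the same throughout. Every value is a log2 ratio of heart to reference: above 0 means more signal in heart, and a change of 1 is a doubling. The labels give each sample a number of its own but do not say which animals were dosed, housed or processed together.

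Cells that divide copy their DNA in S phase and part the copies in mitosis. The MCM helicase opens the DNA, the clamp Pcna holds the polymerases on it, and ribonucleotide reductase (Rrm1, Rrm2) and thymidylate synthase (Tyms) supply the building blocks. Later in the cycle, cyclins A and B with Cdk1, and the kinases Plk1 and Aurka, drive entry into mitosis, and the spindle checkpoint holds cells there until every chromosome is attached. Heart muscle cells of mice largely leave the cell cycle soon after birth, so that dividing cells in an adult heart are mostly of other types, such as endothelial cells, fibroblasts and leukocytes. In tissue RNA, fewer cells of a type and less RNA per cell cannot be told apart.

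Relative to the reference, all 31 tested genes were low in heart, and the order of their ratios is a description of probes against that reference, not of transcript numbers. The mean log2 ratio over 34 arrays lay below -1 for 31 of 31 genes, as it did for 9.78% of all genes tested, and below -2 for 28 of 31, against 2.08% of all genes. It ran from -1.17 for Cenpa, the histone H3 variant that marks centromeres, to -4.29 for Cenpe, a kinetochore motor, which correspond to signals 2.25-fold and 19.6-fold below the reference. The replication genes Mcm5 (-1.57) and Pcna (-2.07) and the transcription factor E2f1 (-1.66) stood nearest to the reference, and Birc5 (survivin, of the chromosomal passenger complex, -3.91) lay just above Cenpe. The heart identity of the RNA stood out on the same scale: all 11 cardiomyocyte markers had positive ratios, among them Ttn (7.11), Pln (7.08), Tnni3 (6.22) and Myh6 (4.33). The 31 genes were dim: 19 were well above background on all 34 arrays, whereas Ccnb1 (cyclin B1) was so on 11 arrays and Nek2 on 9, and both entered the test only through the carbon black group of day 3. Ccnb1 was well above background on 0 of the 6 vehicle arrays of day 1 and Nek2 on 0 of the 6 carbon black arrays of day 1. Those ratios are bounds, and no change is given for either gene where they enter. The 4 genes below the limit had mean ratios of -3.47 (Bub1, 4 of 34 arrays well above background), -2.67 (Aurkb, 0 arrays), -1.55 (Kif11, 7 arrays) and -1.08 (Ttk, 0 arrays).

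**Figure D1:**
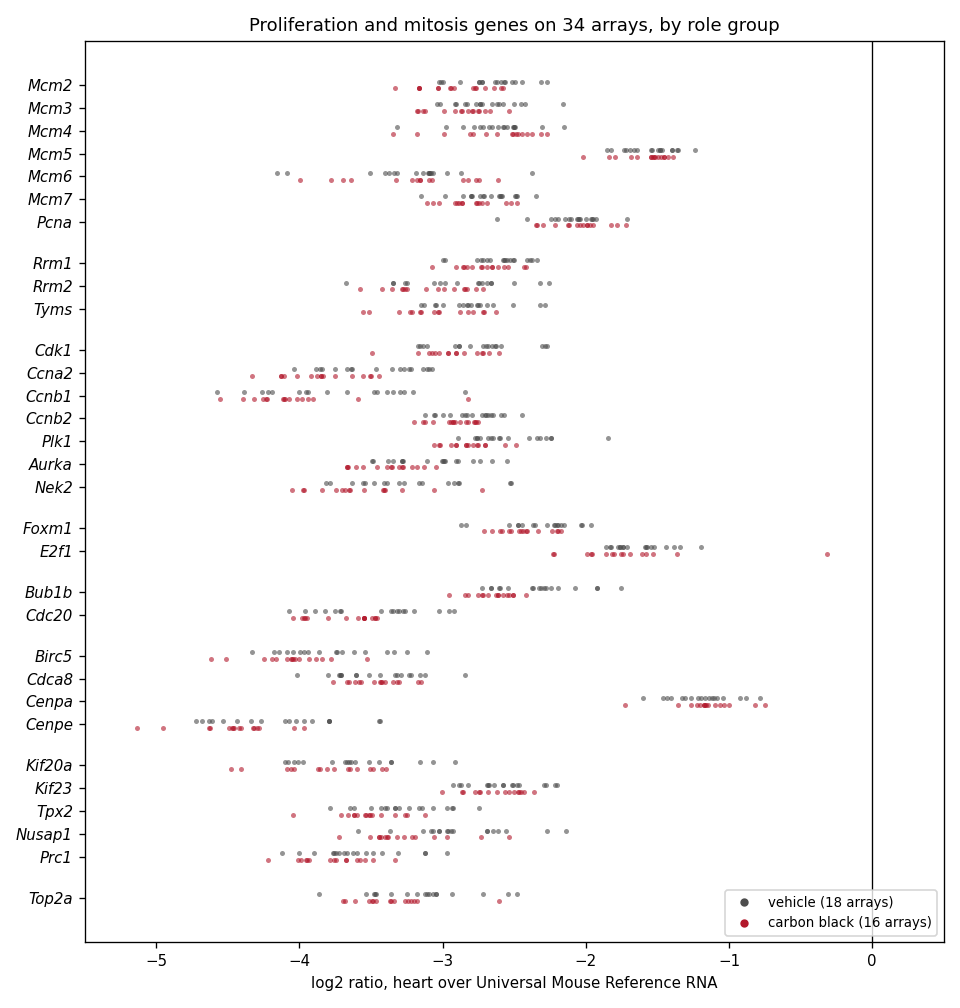
Log2 ratio of heart to Universal Mouse Reference RNA (x axis) of the 31 tested genes (y axis, in role groups), with a point for each of the 18 vehicle (grey) and 16 carbon black (red) arrays. All points lie left of 0, with Cenpa nearest to it (mean -1.17) and Cenpe farthest (mean -4.29), and the 2 treatments overlap for every gene.

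In the mean of the 3 days, with carbon black compared with vehicle within each day, 5 of the 31 genes fell and none rose in limma's moderated test at an adjusted p of 0.05: Nusap1, Ccna2, Bub1b, Aurka and Plk1, all with roles in mitosis. Across all genes, 1.66% passed in the lower direction and 5.44% in either direction (1077 of 19798). The falls were between 0.30 and 0.38 on the log2 scale, or 19.0% to 23.1% less. The median change of the 31 genes was -0.19, beside 0.01 for all genes, and 26 of 31 lay below 0, beside 47.5% of all genes; both count Ccnb1 and Nek2 at their fitted values. An unadjusted p under 0.05 with a lower value was found for 15 of 31 genes (9.57% of all genes) and with a higher value for 0 of 31 (13.7% of all genes). The calls depend on the layout of the arrays, on the scaling and on which arrays are kept. Without the 3 vehicle arrays of day 3 with the highest liver score, a setting added after seeing the data, 0 of the 31 genes and 3 of all genes passed. The 5 genes then lay between -0.36 (Nusap1) and -0.27 (Plk1), with fewer arrays in the fit. With slide, scan day or position on the slide as a fixed block, 0 of the 31 genes passed, beside 0, 382 and 0 of all genes, and position went with treatment. These block fits had 15, 22 and 25 residual degrees of freedom, beside 28 without a block. With each array centred on its median in place of loess, the median of all genes itself moved to 0.19, Nusap1 came to -0.086, Bub1b to -0.072, Ccna2 to -0.051, Aurka to 0.025 and Plk1 to 0.032. In that setting 5 other genes of the set (Mcm5, Pcna, Cdca8, Cenpa, Kif23) passed the threshold in the higher direction, as did 5358 of all genes. Relative to the median of all genes, the 5 genes that fell were below 0 in each of the 18 or 19 settings that gave them a value. These settings reuse the arrays on which the 5 genes were picked, so they give no independent support.

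**Figure D2:**
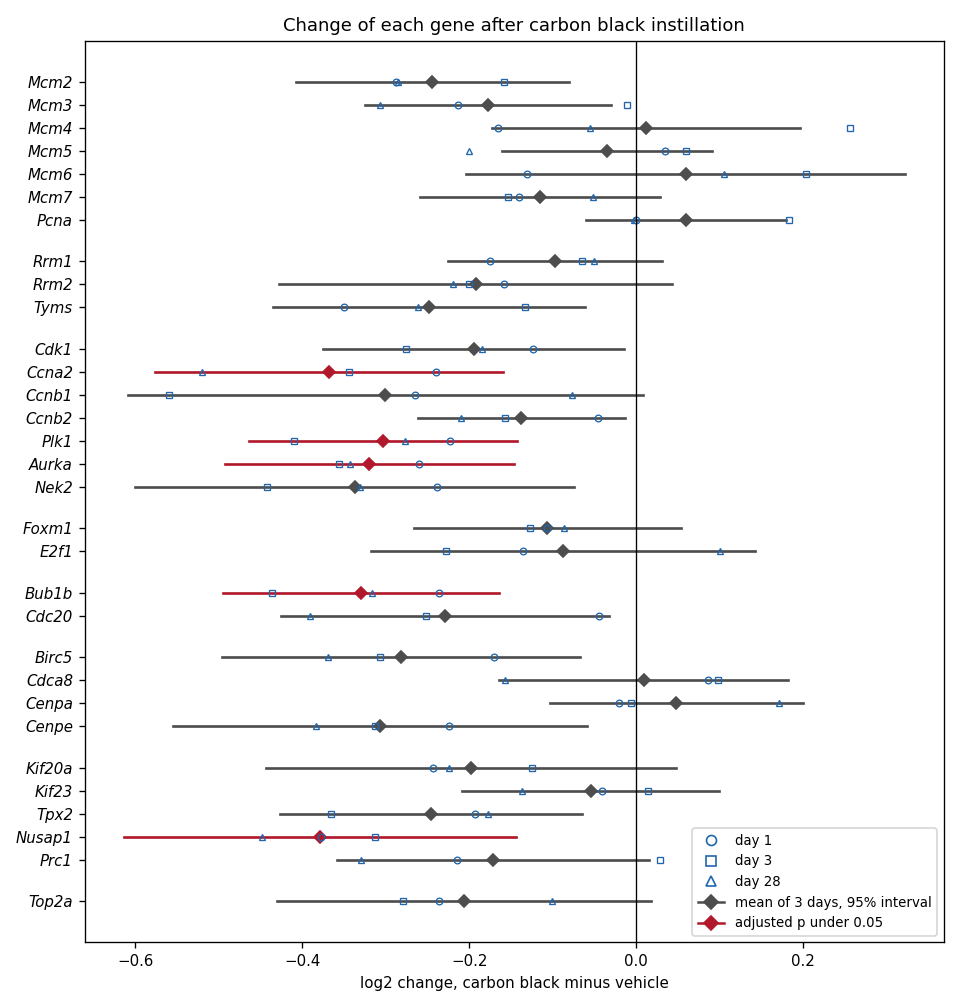
Log2 change, carbon black minus vehicle, of each of the 31 tested genes (y axis, in role groups) at days 1, 3 and 28 (open symbols) and in the mean of the 3 days (diamonds, with 95% intervals; red where the limma adjusted p is under 0.05). In the mean of the 3 days 26 of 31 genes lie below 0 and the 5 red intervals exclude it. For Ccnb1 and Nek2 the day 1 ratio of 1 group is a bound; with median centring in place of loess, Aurka lies at 0.025 and Plk1 at 0.032.

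Promoters of the set share sequence letters that the choice of genes did not use. RefSeq promoters (GRCm38.p6) were given for 31 of the 37 genes, each with 250 bases before and 50 after the start. The CHR element, which is bound by the DREAM and MuvB complexes in many cell cycle genes, was searched as TTTGAA or TTCGAA. The CCAAT box was searched as CCAAT and E2F sites as TTCCCGC, as TTGGCGC, as TTCGCGC and as TTGCCGC. All were searched on both strands. TTTGAA was present in 16 of 31 promoters (51.6%, beside 18.1% of 27025 promoters of all genes), TTCGAA in 4 (12.9% beside 1.57%), CCAAT in 27 (87.1% beside 37.9%) and an E2F word in 9 (29% beside 9.69%). CCAAT occurred together with TTTGAA or TTCGAA in 18 of 31 promoters, or 58.1%, beside 7.7% of all. The words overlap in places (TTGGCGC with the reverse complement of TTCGCGC), and a match is only a match of letters. Shown here are the 250 bases before the start, 5′ to 3′, of 4 of the 5 genes that fell and of the 2 replication genes with the brightest probes, Pcna and Mcm6, with every searched word in capitals. The promoter of Ccna2 was not analysed here.
Nusap1: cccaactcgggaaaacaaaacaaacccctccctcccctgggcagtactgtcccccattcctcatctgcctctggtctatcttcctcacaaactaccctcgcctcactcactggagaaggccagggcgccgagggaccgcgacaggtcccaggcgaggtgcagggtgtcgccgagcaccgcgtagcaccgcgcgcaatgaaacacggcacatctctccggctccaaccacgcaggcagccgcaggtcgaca
Bub1b: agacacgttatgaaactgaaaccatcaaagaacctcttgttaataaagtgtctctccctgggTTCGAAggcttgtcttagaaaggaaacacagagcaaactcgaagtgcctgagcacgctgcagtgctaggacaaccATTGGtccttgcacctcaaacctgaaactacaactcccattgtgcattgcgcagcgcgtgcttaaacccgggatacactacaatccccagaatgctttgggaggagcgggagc
Aurka: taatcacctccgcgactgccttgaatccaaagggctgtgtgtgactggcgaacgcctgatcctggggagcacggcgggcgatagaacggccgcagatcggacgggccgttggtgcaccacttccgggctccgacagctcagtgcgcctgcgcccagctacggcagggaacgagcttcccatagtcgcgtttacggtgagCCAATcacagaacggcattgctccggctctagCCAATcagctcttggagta
Plk1: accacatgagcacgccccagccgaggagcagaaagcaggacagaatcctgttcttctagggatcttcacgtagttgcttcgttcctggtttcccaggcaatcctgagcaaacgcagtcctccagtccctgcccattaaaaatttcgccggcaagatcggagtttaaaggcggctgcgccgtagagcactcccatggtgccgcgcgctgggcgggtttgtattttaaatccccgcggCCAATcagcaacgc
Pcna: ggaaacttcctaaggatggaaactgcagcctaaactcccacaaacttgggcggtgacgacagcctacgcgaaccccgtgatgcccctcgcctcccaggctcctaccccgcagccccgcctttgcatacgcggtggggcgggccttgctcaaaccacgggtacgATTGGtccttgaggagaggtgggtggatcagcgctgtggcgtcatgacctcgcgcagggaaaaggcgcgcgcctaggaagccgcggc
Mcm6: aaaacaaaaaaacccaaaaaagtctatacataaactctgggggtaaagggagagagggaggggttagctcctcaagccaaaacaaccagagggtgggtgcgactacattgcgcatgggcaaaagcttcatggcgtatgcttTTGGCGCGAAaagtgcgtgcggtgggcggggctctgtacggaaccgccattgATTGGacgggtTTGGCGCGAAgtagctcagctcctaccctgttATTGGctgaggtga
They lie at chr2:119618048-119618297 (Nusap1, + strand), chr2:118597961-118598210 (Bub1b, +), chr2:172370571-172370820 (Aurka, -), chr7:122159185-122159434 (Plk1, +), chr2:132253181-132253430 (Pcna, -) and chr1:128359706-128359955 (Mcm6, -). The window of Bub1b holds TTCGAA and a CCAAT box, and those of Aurka and Plk1 hold CCAAT boxes. Bub1b, Aurka and Plk1 each have a TTTGAA in the bases after the start. The window of Pcna holds a CCAAT box, and that of Mcm6 holds E2F words and CCAAT boxes, with a further E2F word after the start. None of the searched words was found in the window of Nusap1, which had the largest fall. The median change in the mean of the 3 days was -0.19 for the 13 tested genes with TTTGAA or TTCGAA and -0.19 for the 13 without. It was -0.18 for the 22 with CCAAT and -0.26 for the 4 without, and -0.15 for the 8 with an E2F word and -0.24 for the 18 without. These differences were not tested.

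The 7 tested genes of mitotic entry held 3 of the 5 that fell, and the 5 with measured ratios in every group lay below 0 in the mean of the 3 days (median -0.30, from -0.37 to -0.14). Ccna2 encodes cyclin A2, the partner of Cdk2 and Cdk1 in S phase and early mitosis. Its log2 ratio at day 28 was -3.88, -4.33, -3.75, -3.92 and -3.84 in the 5 carbon black arrays, and from -3.84 to -3.10 with a median of -3.43 in the 6 vehicle arrays. Vehicle replicate 3 (-3.84) reached into the carbon black range, and the other vehicle arrays lay above it. At day 3 the carbon black arrays read -3.51, -4.01, -4.11, -3.50 and -3.85 and the vehicle arrays from -4.03 to -3.13 (median -3.28). At day 1 the ranges were -4.13 to -3.45 (median -3.74) with carbon black and -3.88 to -3.07 (median -3.56) with vehicle. The groups overlapped on each day. The mean of the 3 days fell by 0.37 (SE 0.10, 95% interval -0.58 to -0.16, limma adjusted p = 0.0338), with 15 of 16 exposed arrays below the vehicle mean of their day.

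Plk1, polo-like kinase 1, acts in centrosome maturation, spindle assembly and cytokinesis. At day 3 its ratio was -2.82, -2.79, -2.94, -2.70 and -2.84 with carbon black and ran from -2.68 to -2.24 (median -2.34) with vehicle. No carbon black array reached the vehicle range on that day. Of the 31 genes, the groups did not overlap for 0 at day 1, 1 at day 3 (Plk1) and 0 at day 28. The shares of all genes were 0.535%, 0.96% and 0.515%. At day 1 the carbon black arrays spanned -3.02 to -2.49 (median -2.80) and the vehicle arrays -2.77 to -1.85 (median -2.70). Replicate 5 of that vehicle group (-1.85) stood 0.81 of the group's range away from the next. At day 28 the values were -2.91, -3.02, -2.57, -2.75 and -3.06 with carbon black and -2.89 to -2.32 (median -2.59) with vehicle. The mean of the 3 days fell by 0.30 (SE 0.08, 95% interval -0.46 to -0.14, limma adjusted p = 0.0259), with 14 of 16 exposed arrays below the vehicle mean of their day; with median centring it came to 0.032.

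Aurka, aurora kinase A, activates Plk1 and builds the spindle poles. At day 3 its ratio was -3.27, -3.21, -3.45, -3.30 and -3.18 with carbon black and -3.38 to -2.66 (median -2.90) with vehicle, where replicate 3 (-3.38) was the one vehicle array inside the carbon black range. At day 28 it was -3.67, -3.61, -3.05, -3.39 and -3.67 against -3.48 to -2.79 (median -3.13). At day 1 it spanned -3.66 to -3.13 (median -3.36) against -3.49 to -2.55 (median -3.20). The groups overlapped on every day. The mean of the 3 days fell by 0.32 (SE 0.09, 95% interval -0.49 to -0.15, limma adjusted p = 0.0279, 14 of 16 exposed arrays lower) and came to 0.025 with median centring. The other genes of mitotic entry did not pass: Cdk1, the main mitotic kinase, changed by -0.19 (adjusted p = 0.176) and Ccnb2 (cyclin B2) by -0.14 (0.165). The adjusted p was 0.108 for Nek2, a centrosome kinase, and 0.227 for Ccnb1. Ccnb2, a bright gene of this role, ranged with vehicle from -3.12 to -2.59, -2.86 to -2.57 and -3.06 to -2.45 at days 1, 3 and 28. With carbon black it ranged from -3.07 to -2.77, -2.96 to -2.76 and -3.20 to -2.77, and the highest ratio was a vehicle array on each day. The 3 probes of Ccnb1 were well above background on 11, 6 and 2 of 34 arrays.

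**Figure D3:**
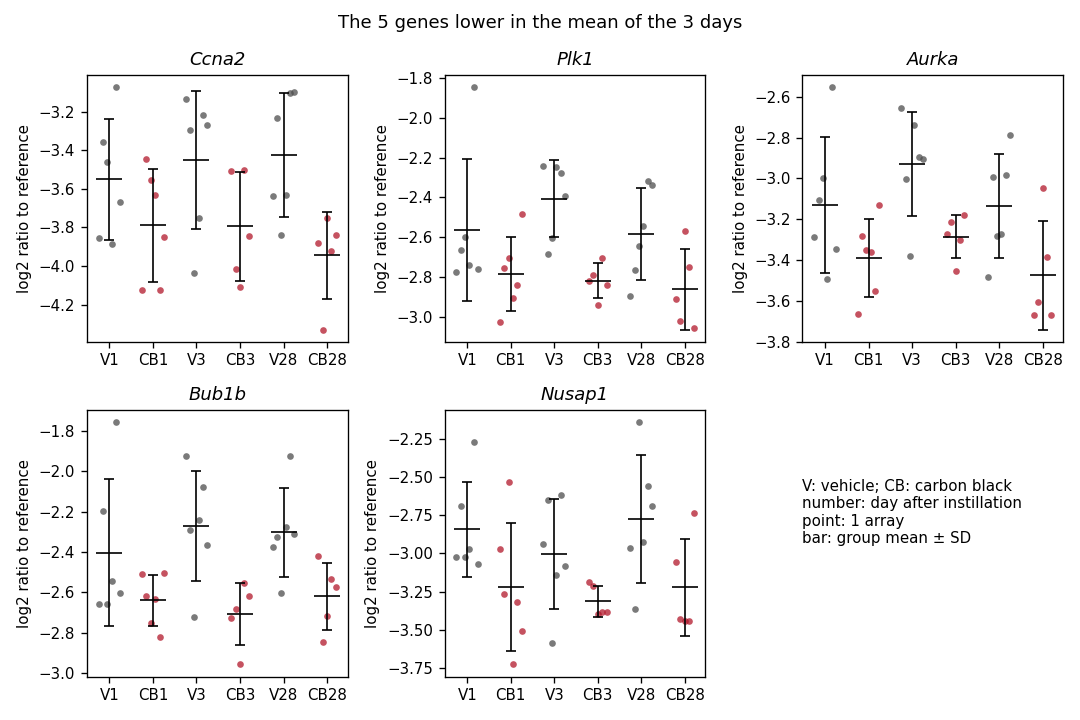
Log2 ratio of heart to reference (y axis) of the 5 genes that passed the test in the mean of the 3 days, by group and day (x axis), with a point for each array and bars for the group mean ± SD. The carbon black mean is the lower one on each day, and the groups overlap everywhere except for Plk1 at day 3; with median centring in place of loess, the mean change of Aurka comes to 0.025 and that of Plk1 to 0.032.

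Bub1b encodes BubR1, a kinase of the spindle checkpoint that restrains the anaphase-promoting complex. Its ratio at day 3 was -2.72, -2.68, -2.96, -2.55 and -2.62 with carbon black and -2.72 to -1.92 (median -2.27) with vehicle. Vehicle replicate 3 (-2.72) fell inside the carbon black range and the other 5 vehicle arrays above it. At day 28 the values were -2.42, -2.85, -2.72, -2.54 and -2.57 against -2.60 to -1.92 (median -2.32). At day 1 the ranges were -2.82 to -2.51 (median -2.62) and -2.66 to -1.75 (median -2.57). Bub1b was the only one of the 5 for which all 16 exposed arrays lay below the vehicle mean of their day, with a fall of 0.33 (SE 0.08, 95% interval -0.49 to -0.16, limma adjusted p = 0.0222), although its probe was well above background on 32 of 34 arrays. Cdc20, the activator of the anaphase-promoting complex, changed by -0.23 (adjusted p = 0.144) and at day 28 read -3.96, -3.80, -3.55, -3.96 and -3.94 against a vehicle range of -3.96 to -3.03 (median -3.36). At day 3 it read -3.49, -3.47, -3.59, -3.55 and -3.68 against -3.71 to -2.95 (median -3.29). The day 1 ranges were -4.04 to -3.46 (median -3.55) and -4.07 to -2.92 (median -3.73), and the exposed median was the higher one there.

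Among spindle motors and cytokinesis genes, Nusap1, a protein that bundles microtubules near chromosomes, fell by 0.38 (SE 0.12, 95% interval -0.61 to -0.14, limma adjusted p = 0.0475, 14 of 16 exposed arrays lower). At day 3 the carbon black arrays read -3.19, -3.21, -3.40, -3.39 and -3.38 and the vehicle arrays -3.59 to -2.62 (median -3.01). At day 28 they read -3.06, -3.43, -3.44, -3.44 and -2.73 against -3.37 to -2.14 (median -2.81). At day 1 they ranged from -3.73 to -2.53 (median -3.29) against -3.07 to -2.27 (median -2.998). It had the widest spread of the 5, and the groups overlapped on every day. The other 4 tested genes of this role did not pass: Tpx2, which targets and activates aurora A, changed by -0.25 (adjusted p = 0.0878, 15 of 16 exposed arrays lower), the kinesins Kif20a by -0.20 and Kif23 by -0.05, and Prc1, which bundles the central spindle, by -0.17. The ratio of Tpx2 at day 3 was -3.59, -3.51, -4.04, -3.50 and -3.43 with carbon black and -3.79 to -2.93 (median -3.25) with vehicle. Its groups overlapped, and replicate 3 of the carbon black group stood apart from the other 4. At day 28 Prc1 read -3.75, -4.01, -3.33, -3.95 and -3.67 against a vehicle range of -3.77 to -2.97 (median -3.47). At day 3 its medians were -3.68 with carbon black and -3.71 with vehicle, and at day 1 they were -3.86 and -3.63. Kif20a ranged from -4.41 to -3.48, -4.04 to -3.42 and -4.48 to -3.39 with carbon black at days 1, 3 and 28. With vehicle it ranged from -4.10 to -2.92, -4.01 to -3.36 and -3.97 to -3.06, and the groups overlapped. A second probe of Kif23, well above background on 27 arrays, gave -0.27, so that the probes of this gene disagree.

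Of the 4 tested genes of the passenger complex and centromere, none passed, and their median was -0.14. Birc5 changed by -0.28 (adjusted p = 0.0993, 13 of 16 exposed arrays lower) and Cenpe by -0.31 (0.120, 13 of 16), whereas Cdca8 (borealin, a passenger subunit) came to 0.01 and Cenpa to 0.05. The second probe of Cdca8, well above background on 8 arrays, gave -0.26. The ratio of Birc5 was -4.19, -4.16, -4.04, -3.53 and -3.89 at day 3 and -4.09, -4.51, -3.84, -4.06 and -4.01 at day 28 with carbon black. The vehicle arrays ran from -4.09 to -3.25 (median -3.66) and from -4.33 to -3.11 (median -3.80). At day 1 the medians of Birc5 were nearly equal, at -4.04 with carbon black and -4.02 with vehicle, and vehicle replicate 5 (-3.34) stood above the other 5. Cenpe read -4.32, -4.63, -4.49, -3.97 and -4.30 at day 3 and -4.47, -4.95, -4.04, -4.46 and -4.41 at day 28, against vehicle medians of -3.94 and -4.05. Its groups overlapped on both days. The medians of Cdca8 with carbon black and vehicle were -3.46 and -3.57 at day 1 and -3.30 and -3.40 at day 3. They were -3.57 and -3.47 at day 28, with the order turned. Cenpa at day 28 read -1.16, -1.18, -0.75, -1.03 and -0.82 against a vehicle range of -1.43 to -0.88 (median -1.19), the one gene of this role with a higher exposed median there. Top2a, the topoisomerase that untangles chromosomes, changed by -0.21 (adjusted p = 0.258), with 15 of 16 exposed arrays lower.

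In the mean of the 3 days the replication genes changed less than the mitotic ones in value, and none of them passed. The 10 genes of the helicase, the clamp and nucleotide supply had a median of -0.11 and the other 21 of -0.23. This order did not hold at day 1. There the median deviation of the 10 from their medians over all arrays averaged 0.01 with vehicle and -0.20 with carbon black. For the other 21 it averaged 0.11 and -0.08. The difference between the groups of genes was not tested. Within the helicase, Mcm2 changed by -0.24 (adjusted p = 0.0642, 13 of 16 exposed arrays lower) and Mcm3 by -0.18 (0.130, 14 of 16), while Mcm4 came to 0.01, Mcm5 to -0.04 and Mcm6 to 0.06, although the 6 subunits form 1 ring. Mcm2 ranged with carbon black from -3.17 to -2.58 (median -2.99) at day 1 and read -2.77, -2.59, -3.16, -2.70 and -2.77 at day 3 and -2.64, -3.03, -2.94, -2.79 and -3.33 at day 28. With vehicle it ranged from -3.03 to -2.31 (median -2.73), -2.997 to -2.27 (median -2.60) and -3.01 to -2.45 (median -2.61), so that its exposed median was lower on each day while the ranges overlapped. Mcm3 read -2.79, -2.99, -2.70, -2.53 and -2.75 at day 3, where the vehicle median was -2.70, and -2.74, -3.12, -2.67, -2.79 and -3.18 at day 28, where it was -2.67. Mcm6 was among the most variable genes: it read -3.33, -3.69, -2.75, -2.86 and -2.82 at day 3 and -3.08, -3.22, -2.77, -3.16 and -2.61 at day 28 with carbon black. The vehicle arrays ran from -4.16 to -2.97 and from -3.40 to -2.38. Pcna spread less. Its ratio at day 3 was -2.06, -1.99, -1.72, -1.95 and -1.99 with carbon black and -2.41 to -1.95 (median -2.06) with vehicle. At day 28 it was -2.02, -2.04, -1.82, -2.13 and -1.78 against -2.12 to -1.71 (median -1.96). At day 1 it ranged from -2.35 to -1.97 (median -2.26) against -2.62 to -1.996 (median -2.17). The groups overlapped on all days, and the mean of the 3 days was 0.06 (SE 0.06, 95% interval -0.06 to 0.18, limma adjusted p = 0.578).

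In nucleotide supply, Tyms changed by -0.25 (adjusted p = 0.0956), Rrm2 by -0.19 (0.321) and Rrm1 by -0.10 (0.362), and a second probe of Tyms, well above background on 34 of 34 arrays as the first, gave -0.13. Tyms ranged from -3.55 to -2.63 (median -3.23) with carbon black and -3.13 to -2.32 (median -2.82) with vehicle at day 1. At the later days it read -3.03, -3.21, -2.79, -2.71 and -2.88 against a vehicle median of -2.84, and -3.03, -3.23, -3.06, -3.15 and -2.71 against one of -2.72. The exposed median of Tyms was lower on each day, least so at day 3, and the ranges overlapped. Rrm1 read -2.69, -2.73, -2.66, -2.42 and -2.54 at day 3 and -2.86, -2.85, -2.43, -2.57 and -2.62 at day 28, against vehicle medians of -2.53 and -2.55. The transcription factors of the cell cycle, Foxm1 and E2f1, changed by -0.11 (0.431) and -0.09 (0.684). A second probe of E2f1, well above background on 14 arrays, gave -0.26, so that the probes of this gene disagree. At day 28 it gave -0.17 where the tested probe gave 0.10. In carbon black replicate 1 of that day the tested probe had a signal above local background of 14 for heart and 17 for the reference. The median of its reference signal over all arrays was 746. Foxm1, an activator of mitotic genes, had medians at days 1, 3 and 28 of -2.52, -2.42 and -2.46 with carbon black and of -2.33, -2.24 and -2.33 with vehicle. For E2f1, an activator of S phase genes, they were -1.85, -1.74 and -1.81 with carbon black and -1.77, -1.57 and -1.66 with vehicle. The exposed medians of both factors were the lower ones on each day, with overlapping ranges.

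On no single day did any of the 31 genes pass, and neither did any of the 19798 genes tested (0%). At day 1, 29 of 31 genes lay below 0 with a median of -0.18, beside 48.2% of all genes, and 2 had an unadjusted p under 0.05 in the lower direction (3.73% of all genes). The smallest p-values belonged to Tyms (-0.35, SE 0.15, limma adjusted p = 0.527), Mcm2 (-0.29, SE 0.13, 0.551), Nusap1 (-0.38, SE 0.19, 0.587) and Aurka (-0.26, SE 0.14, 0.608). At day 3, 24 of 31 lay below 0 (45.8% of all genes) with a median of -0.16, and 5 had an unadjusted p under 0.05 in the lower direction (5.27% of all genes): Bub1b (-0.44, SE 0.14, adjusted p = 0.234), Plk1 (-0.41, SE 0.14, 0.234), Aurka (-0.36, SE 0.15, 0.287), Tpx2 (-0.37, SE 0.16, 0.296) and Ccnb1. The 24 include Ccnb1 and Nek2, which entered the test only through the carbon black group of that day, so neither is evidence of a fall there. The heart signal of Ccnb1 above local background was 20 to 60 with carbon black and 11 to 30.5 with vehicle at day 3. At day 28, 28 of 31 lay below 0 (48.5% of all genes) with a median of -0.21, and 6 had an unadjusted p under 0.05 in the lower direction (2% of all genes). Those with the smallest p were Ccna2 (-0.52, SE 0.18), Mcm3 (-0.31, SE 0.13), Cdc20 (-0.39, SE 0.17) and Aurka (-0.34, SE 0.15), each with a limma adjusted p of 0.987. The values lay below 0 on all 3 days for 22 genes, on 2 days for 6 and on 1 day for 3 (Mcm5, Mcm6 and Cdca8). At day 3, 7 genes lay above 0: Mcm4 (0.26), Mcm6 (0.20), Pcna (0.18), Cdca8 (0.098), Mcm5 (0.059), Prc1 (0.029) and Kif23 (0.014). Mcm4 had values of -2.45, -2.81, -2.51, -2.27 and -2.47 with carbon black and -3.32 to -2.50 (median -2.67) with vehicle. E2f1 at day 28 read -0.32 in replicate 1 of the carbon black group and -1.96 to -1.58 in the other 4, so that its change of 0.10 on that day is carried by 1 array. On that array its signal above local background was only 14 for heart and 17 for the reference. Among the tests of whether the change differed between days, 0 of 31 genes had an unadjusted p under 0.05, beside 1.2% of all genes (237). The smallest p-values belonged to Mcm4 (0.158), Mcm5 (0.187), Mcm3 (0.257) and Prc1 (0.292), all with a limma adjusted p of 1.00.

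Between days within a treatment, no gene of the set passed, and neither did any gene tested (0% in each of the 6 comparisons). In vehicle hearts the median of the 31 genes was 0.08 higher at day 3 than at day 1, 0.07 higher at day 28 than at day 1, and -0.02 at day 28 relative to day 3. In exposed hearts the same differences were 0.10, 0.02 and -0.06. Vehicle hearts had the smallest p-values for Cdc20 from day 1 to 3 (0.33, SE 0.16, limma adjusted p = 0.999), Pcna from day 1 to 28 (0.26, SE 0.10, adjusted p = 1.00) and Prc1 from day 3 to 28 (0.30, SE 0.15, 0.956). Exposed hearts had them for Pcna from day 1 to 3 (0.27, SE 0.10, 0.744), where Mcm4 was at 0.33 and Mcm6 at 0.39. From day 1 to 28 the smallest was that of Pcna (0.26, SE 0.10, 0.980), with Mcm6 at 0.51, and from day 3 to 28 that of Cenpa (0.25, SE 0.14, 1.00).

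Genes with related roles that are outside the set were read from 3 lists. Of 35 tested genes of other mitotic roles, 5 fell in the mean of the 3 days: Ncaph (limma adjusted p = 0.0385, not well above background in at least 1 group, so that no change is given) and Ncapd2 (-0.21, 0.0482), both condensin subunits, Mad2l1 (-0.30, 0.0382), the checkpoint protein Mad2, Incenp (-0.29, 0.045), the scaffold of the passenger complex, and Kif4 (-0.36, 0.0496), a chromosome kinesin that is named after its value was seen, to complete the 5. That list had a median of -0.21, with 33 of 35 below 0 (47.5% of all genes). Of all genes, 1.66% passed in the lower direction. Of 29 other replication genes, 0 passed. An unadjusted p under 0.05 was found for 3 in the higher direction (13.7% of all genes) and 7 in the lower (9.57% of all genes). Their median was -0.10, with Gins4 (-0.15, limma adjusted p = 0.0609) and Cdc45 (-0.29, 0.0891), both of the active helicase, at the smallest p. Of 28 G1 cyclins, kinases, inhibitors and pocket proteins, 2 rose and 2 fell, beside 5.44% of all genes that passed in either direction. Rbl2 (p130, a pocket protein of resting cells, 0.36, adjusted p = 0.0295, higher in 16 of 16 exposed arrays) and Cdkn1c (the inhibitor p57, 0.50, 0.0318, 15 of 16) rose. Rbl1 (p107, the pocket protein of cycling cells, -0.30, 0.0382) and Cdkn2d (the inhibitor p19, -0.17, 0.045) fell.

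The lower values were shared by other genes that are low in heart relative to the reference. The other 384 genes with a mean log2 ratio below -2 had a median change of -0.18 in the mean of the 3 days, beside -0.19 for the 31 genes, and 24 of them fell and 1 rose. The 1198 genes with a mean ratio above 2 had a median of 0.18, with 89 that rose and 2 that fell. The 11 cardiomyocyte markers had one of 0.34, with 11 of 11 above 0 and 3 past the threshold (Tnni3 0.86, Myl3 0.71 and Actc1 0.46). The SD of all log2 ratios on an array averaged 1.15 to 1.16 in the vehicle groups and 1.20 to 1.21 in the carbon black groups. On each array, the median deviation of the 31 genes from their medians over all arrays was 0.09 ± 0.25 (SD, n = 6) with vehicle and -0.11 ± 0.12 (n = 6) with carbon black at day 1. It was 0.13 ± 0.13 (n = 6) and -0.04 ± 0.08 (n = 5) at day 3, and 0.13 ± 0.19 (n = 6) and -0.06 ± 0.14 (n = 5) at day 28. Of these, the 10 replication and nucleotide genes stood at 0.01 ± 0.08 and -0.20 ± 0.16 at day 1 and 0.04 ± 0.09 and 0.03 ± 0.11 at day 3, vehicle before carbon black. Their values at day 28 were 0.07 ± 0.18 and 0.00 ± 0.12. The highest array was vehicle replicate 5 of day 1 (0.54, where the other low-ratio genes stood at 0.46), which also had the lowest share of spots well above background (42.8%, against a median of 54.9% and a highest share of 66.6%). Next came vehicle replicate 6 of day 28 (0.39, other low-ratio genes 0.35), and the lowest were carbon black replicate 2 of day 28 (-0.30) and replicate 1 of day 1 (-0.29). The part of the array-wide spread in the changes of the 31 genes was not tested.

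**Figure D4:**
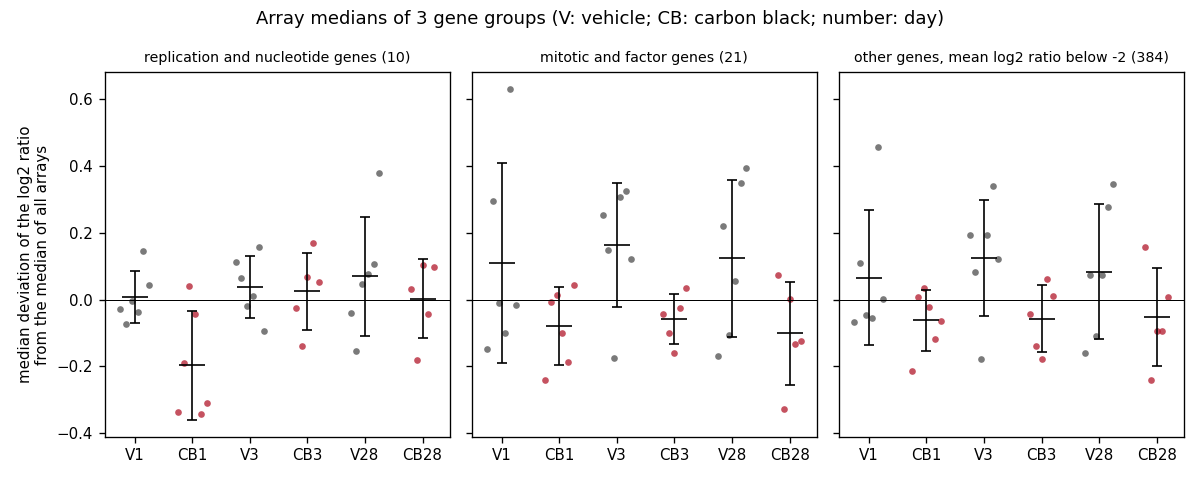
Median deviation of the log2 ratios from each gene's median over all arrays (y axis), by group and day (x axis), for the 10 replication and nucleotide genes, the 21 other genes of the set and the other 384 genes with a mean log2 ratio below -2, with a point for each array and bars for the group mean ± SD. The 21 genes have carbon black means between -0.10 and -0.06 and vehicle means between 0.11 and 0.16, the 384 genes between -0.06 and -0.05 and between 0.07 and 0.13, and the widest gap of the 10 replication genes is at day 1 (-0.20 against 0.01).

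Markers of cell types that a heart sample could hold varied by array. The cardiomyocyte score, the mean deviation of its 11 genes, ranged from -0.74 to 0.09, -1.06 to 0.35 and -0.69 to 0.16 in the vehicle groups of days 1, 3 and 28, and from -0.34 to 0.90, -0.33 to 0.21 and -0.01 to 0.30 with carbon black. The B cell score (5 of 8 listed genes tested, Ighm without a probe, Cd79a and Fcer2a below the limit on brightness) ranged from -0.23 to 0.32, -0.25 to 1.09 and -0.35 to 3.34 with vehicle and from -0.43 to 1.54, -0.33 to 2.20 and -0.37 to 2.28 with carbon black. The highest B cell score was in vehicle replicate 6 of day 28, the array with the next to highest median of the 31 genes. Without that array, Ccna2, Plk1, Aurka and Bub1b passed and Nusap1 did not. The fibroblast score (9 of 9 genes) had means of 0.02, 0.01 and 0.04 with vehicle (ranges -0.96 to 0.51, -0.82 to 0.68 and -0.87 to 0.38) at days 1, 3 and 28. With carbon black the means were -0.62, 0.13 and -0.11 (ranges -1.43 to -0.10, -0.46 to 0.59 and -0.41 to 0.38). In the mean of the 3 days 7 of the 9 fibroblast genes lay below 0 (median -0.28), and Dpt fell (-0.44, limma adjusted p = 0.0322). The macrophage score (8 of 9 genes) had means of -0.08, -0.11 and 0.11 with vehicle (ranges -0.46 to 0.29, -0.53 to 0.29 and -0.10 to 0.38). With carbon black the means were -0.41, 0.12 and 0.05 (ranges -0.96 to 0.18, -0.04 to 0.24 and -0.19 to 0.27). Both scores were lower with carbon black at days 1 and 28 and higher at day 3. In the mean of the 3 days 6 of 8 macrophage genes (median -0.10), 5 of 6 mature T cell genes (median -0.12) and 2 of 8 endothelial genes (median 0.06) lay below 0. The liver score (7 of 9 genes) had means of 1.08, 1.29 and -0.29 with vehicle at days 1, 3 and 28 and of -0.002, 1.04 and -0.14 with carbon black. Its highest value was 3.40, in a vehicle array of day 3. The airway and alveolar score (3 of 7 genes) had means of -0.07, 1.21 and -0.08 with vehicle and of 0.18, 0.34 and 0.05 with carbon black. Markers of atrium (5 genes), adipocytes (7) and mesothelium (5) all lay above 0 in the mean of the 3 days (medians 0.57, 0.44 and 0.36). The atrial score was -3.88, -3.89 and -3.59 in vehicle replicates 2 of day 1, 4 of day 3 and 2 of day 28, where the 31 genes stood at 0.23, 0.22 and 0.17. It was -3.34 and -1.65 in carbon black replicates 6 of day 1 and 2 of day 3, where they stood at -0.006 and -0.10. Without these 5 arrays the median change of the 31 genes was -0.15. The part of these cells in the result was not tested.

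The calls also varied with the arrays and the layout. Leaving out 1 array at a time left between 2 and 8 of the 31 genes past the threshold, beside 488 to 2061 of all genes. Plk1 and Bub1b passed in 34 of 34 refits (highest limma adjusted p 0.047 and 0.0428), Aurka in 33, Ccna2 in 24 and Nusap1 in 7. Without carbon black replicate 3 of day 3, 2 genes passed (Plk1 and Bub1b), beside 545 of all genes. Without vehicle replicate 3 of day 3, 8 passed, with Mcm2, Nek2 and Tpx2 in addition, beside 2061 of all genes. The number was 3 without any 1 of vehicle replicate 5 of day 1, carbon black replicates 1 and 5 of day 1, vehicle replicates 1 and 6 of day 3, carbon black replicates 2 and 5 of day 3, vehicle replicate 5 of day 28 or carbon black replicate 2 of day 28. The arrays lay on 14 slides of 4 positions, and all 10 arrays at position 4 were of exposed hearts while 12 of the 18 vehicle arrays lay at position 1. With slide, scan day or position as a fixed block, 8, 11 and 9 of the 31 genes had an unadjusted p under 0.05, as did 3332, 3816 and 2352 of all genes. Under the slide block the changes were -0.37 for Nusap1, -0.24 each for Aurka, Plk1 and Bub1b, and -0.16 for Ccna2, and the median of the 31 genes was -0.096. With scan day that median was -0.13 and with position -0.20, and the 5 genes lay between -0.34 and -0.24 and between -0.49 and -0.27. With the sample channel alone Bub1b came to -0.064, Nusap1 to -0.17, Plk1 to -0.19, Ccna2 to -0.21 and Aurka to -0.26. The median of the 31 genes was then only -0.033, beside -0.009 for all genes, and 19 of the 31 lay below the latter. Among those that turned positive were Foxm1 (0.14), Mcm3 (0.11), Prc1 (0.097) and Ccnb1 (0.090). With Agilent's processed signals Plk1 came to -0.16 and Aurka to -0.20. Within the 10 slides that held both treatments of a day, the median of the 31 genes was lower with carbon black on 8 slides (median difference -0.14, from -0.25 to 0.10). On these slides Plk1 and Aurka were each lower on 9 of 10 and Bub1b, Ccna2 and Nusap1 each on 8 of 10. In all 10 pairs the exposed array lay at position 4 and the vehicle array at position 1. The pairs therefore cannot tell treatment from position.

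**Figure D5:**
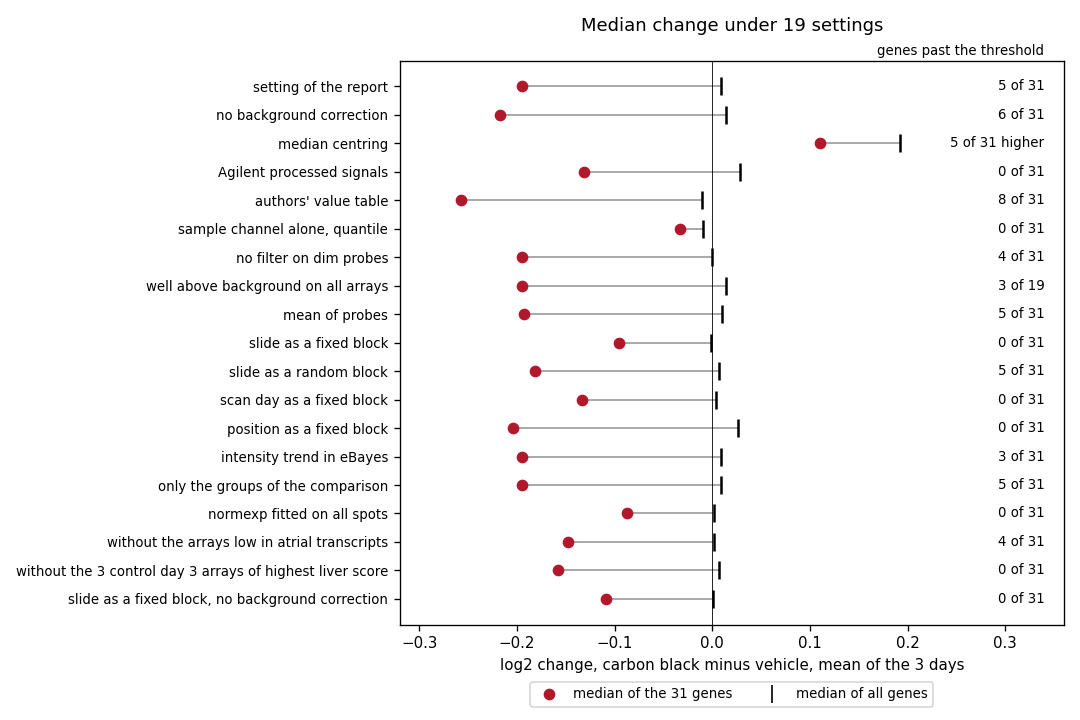
Median log2 change (x axis, carbon black minus vehicle, mean of the 3 days) of the 31 tested genes (points) and of all genes (ticks) under 19 ways of processing or modelling the arrays (y axis), with the number of the set's genes past the threshold at the right. The median of the 31 genes lies below that of all genes in each row, by 0.02 to 0.25, and above 0 only with median centring (0.11, with all genes at 0.19), where the 5 genes past the threshold were higher.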

How the data were processed

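The arrays are two-colour Agilent arrays, scanned into files by Feature Extraction 10.1.1.1, per the file headers, from 200 ng of RNA per heart, per the labels' protocols. The deposited files give intensity per spot and channel on a linear scale; the authors' deposited value table holds log2 ratios, which correlated at 0.995 to 0.998 with loess ratios made here without background correction and have the direction used here, with their making not stated. The direction, sample Cy5 over reference Cy3, comes from the labels; no dyes were swapped. Each array is 1 heart sample, and their number limits the precision.

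Median signals were background-corrected with limma 3.58.1 (R 4.3.3, version 1.17.8 of data.table) by normexp with offset 50, which shrinks the ratios of dim genes, and normalised by loess. A few spots with a very low or very high local background distorted normexp fitted on all spots, so the parameters were fitted without spots whose background the scanner had called an outlier, a choice made after seeing the data. Spots called outliers were left out (0.0532% of values missing). Probes well above background in the sample channel on at least 0.5 of the arrays of 1 group entered, with at most 3 missing values, and the brightest probe of a gene was kept: 19798 of 33269 genes or accessions on the array, 12348 with a name through RefSeq (GRCm38.p6, names and promoters only; the array header gives mm8). Means of 6 groups were fitted with lmFit and eBayes (28 residual degrees of freedom), and p-values were adjusted by Benjamini-Hochberg over all genes of a comparison. The fit was tested on simulated data with shifts larger than the falls given here. Genes were drawn independently there, with no effect of slide, position, scan day or array. The simulation therefore cannot show how the calls depend on these. The p-values measure the spread between these samples. Plots were drawn with Python 3.11.15 and matplotlib 3.10.9.

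The genes and lists were chosen with earlier results of these data known. The genes given by array are those past the threshold, otherwise the 4 of smallest p in a comparison, and the 2 brightest of each role; up to 4 genes of each other list are named. The alternatives concern background correction, scaling, signal, filter, probe choice, slide, scan day, position, variance prior and arrays left out.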

Additional observations from a re-analysis of the deposited data

Results flagged for a closer look

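In 156 groups of 5 or 6 values, which are 26 items in 6 groups each, 12 values stood far from the others of their group. Chance gives such a gap in about 1 group in 20, and the items share the same arrays. Vehicle replicate 5 of day 1 accounts for 4 of them: it was the highest for Birc5 (-3.34, the others -4.17 to -3.94), Cenpe (-3.44, the others -4.72 to -4.27) and Plk1 (-1.85, the others -2.77 to -2.60), genes of mitosis, and the lowest for the replication clamp Pcna (-2.62, the others -2.22 to -1.996). It also had the lowest share of spots well above background. The part of that share in these values was not tested.

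The helicase subunit Mcm6 was lowest in vehicle replicate 1 of day 3 (-4.16, the others -3.32 to -2.97) and highest in vehicle replicate 6 of day 28 (-2.38, the others -3.40 to -3.08). Mcm5 was lowest in carbon black replicate 1 of day 1 (-1.84, the others -1.55 to -1.45). Cenpe was lowest in vehicle replicate 3 of day 3 (-4.61, the others -4.10 to -3.79), the array without which 8 genes of the set and 2061 of all genes passed. Top2a was lowest in carbon black replicate 4 of day 1 (-3.69, the others -3.34 to -3.18), Tpx2 in carbon black replicate 3 of day 3 (-4.04, the others -3.59 to -3.43) and Cenpa in carbon black replicate 4 of day 3 (-1.73, the others at -1.18 or above). E2f1 was highest in carbon black replicate 1 of day 28 (-0.32, the others -1.96 to -1.58), by the widest gap in log2 units of the 12. Its signal above local background there was 14 for heart and 17 for the reference.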

How the results depend on the processing

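Of the 31 genes, 5 fell in the mean of the 3 days. The number past the threshold was 0 with Agilent's processed signals, with the sample channel alone, with slide, scan day or position as a fixed block, with slide as a fixed block and no background correction, with normexp fitted on all spots, and without the 3 vehicle arrays of day 3 with the highest liver score, the last 3 added after seeing the data. It was 3 of 19 with probes well above background on all arrays, 3 with an intensity trend, 4 without the 5 arrays low in atrial transcripts (also added), 4 with no filter, 5 with the mean of probes or slide as a random block, 6 with no background correction and 8 with the authors' deposited value table. It ranged from 2 to 8 when 1 array was left out. Median centring moved the median of all genes from 0.01 to 0.19 and the split of genes past the threshold from 749 higher and 328 lower to 5358 and 23. The genes past the threshold numbered 1077 in the setting of the report, and 0 (processed signals, slide, position), 3 (3 vehicle arrays out), 382 (scan day), 388 (normexp on all spots), 418 (sample channel) or 703 (no filter) elsewhere, and 488 to 2061 with 1 array left out.

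Under median centring the median of the 31 genes was 0.058, 0.26, 0.029 and 0.11 for carbon black minus vehicle at days 1, 3 and 28 and in their mean, 0.27 for vehicle day 28 minus 1, and 0.33 and 0.23 for carbon black days 3 and 28 minus 1. Aurka then came to 0.036 (day 1), 0.098 (day 3) and 0.025 (mean), Plk1 to 0.044 (day 3) and 0.032 (mean) and Tpx2 to 0.045 (day 3). Normexp on all spots gave medians of 0.044 (day 1) and -0.089 (carbon black day 3 minus 1) and put Nusap1 at 0.032 at day 1. Tpx2 at day 3 was 0.038 with processed signals and 0.061 with the sample channel alone, E2f1 for carbon black day 28 minus 3 was -0.26 with the latter, and Mcm3 for vehicle day 28 minus 1 was -0.011 with slide as a block and no background correction. The cause of these changes was not tested. No paired analysis was possible by replicate number, because the labels number every sample separately; arrays of the same slide were compared as pairs instead. Dim signals limit the set: Ccnb1 and Nek2 were well above background on 11 and 9 of 34 arrays.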
